A study of Mus musculus with 26 samples.

Results

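The mammary glands of 5 lactating mice with the sample code AQ were set against those of 5 lactating mice with the code AC, which are 10 of the 26 arrays of the series. All 10 mice belonged to an Advanced Intercross Line of the inbred strains CBA/CaH and QSi5 at generation 14, and were sampled on day 9 of lactation. The AQ mice are the arrays described as AQ1 to AQ5 and the AC mice those described as AC1 to AC5, with inguinal gland RNA of 1 mouse on each array. The labels give the 2 codes without saying what they stand for, and record no treatment, litter, parentage or age for either. The parental strains on the same day of lactation, QSi5 and CBA/CaH with 3 arrays each, and on day 12 of pregnancy, with 5 arrays each, served to show which transcripts differ between the strains that founded the line.

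An advanced intercross line is made by crossing inbred strains and then mating the descendants at random for many generations, so that each animal carries its own mosaic of short chromosome stretches from either founder. QSi5 is known for large litters and high milk output. In the lactating gland the secretory epithelium fills most of the tissue and its RNA is dominated by caseins and whey proteins, while lipid enzymes supply the fat that leaves the cell in membrane-coated droplets.

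The tissue label was checked against milk genes. Of 11 measured milk protein genes, 10 were among the 100 genes with the highest mean level over the 10 arrays, and Wap, a whey protein, stood first of 18193 genes. Levels are the authors' log2 values from RMA, 1 for each probe set, so that 1 unit is a 2-fold difference. The medians of the 10 arrays lay between 5.13 and 5.22, and the difference between the 3 prime and 5 prime Gapdh controls ran from 0.537 to 0.707 in AQ and from 0.573 to 0.800 in AC. No pair of arrays held identical values. With 5 mice per code, the number of arrays sets how small a difference could be seen.

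The arrays did not separate by code. The first principal component of the 10 arrays held 24.4% of the variance and placed AQ1 to AQ3 with AC1 to AC3 (scores of -23.6 to -13.7), and AQ4 and AQ5 with AC4 and AC5 (scores of 23.3 to 35.3). This division by number is not in the labels and was taken from the values, and it runs across the codes in the same way. Genes of blood vessel cells followed it, with a list median relative to the mean of the 10 mice of 0.22 to 0.41 on arrays 1 to 3, against -0.57 to -0.36 on arrays 4 and 5. Fibroblast and matrix genes did so too, with 0.04 to 0.37 against -0.45 to -0.23. Both lists were picked out of 35 after their values were seen. In bulk tissue, fewer cells of a type and less RNA per cell cannot be told apart. A limma model was fitted with the division by number alone, without code. In it, 1797 of 45037 probe sets (3.99%) had a Benjamini-Hochberg adjusted p under 0.05 between arrays 4 and 5 and arrays 1 to 3. Since the division came from these same values, this describes its extent and is no test of it. The second component held 15.0%, with AC1 (31.1) and AC3 (-41.9) at its ends. The third held 11.6%, with scores of 2.76 to 20.6 in AQ and of -30.9 to 9.85 in AC. On it the AC arrays lay lower, and only AC2 lay among the AQ arrays. Pairs of AQ arrays had a mean correlation of 0.987, pairs of AC arrays 0.985 and pairs of an AQ with an AC array 0.986. The median SD of a gene over mice was 0.169 among AQ mice and 0.182 among AC mice.

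**Figure D1:**
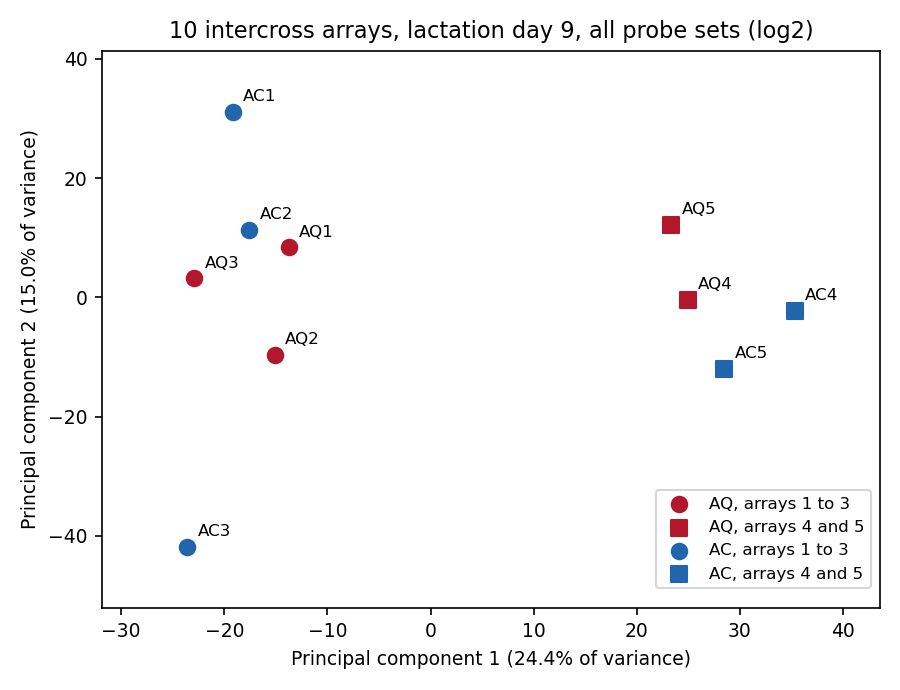
First and second principal components of the 10 intercross arrays over all probe sets, AQ in red and AC in blue, with arrays numbered 1 to 3 as circles and 4 and 5 as squares. The first component (24.4% of the variance) divides the numbers and not the codes, and AC1 and AC3 lie at the ends of the second.

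No transcript passed the test between AQ and AC mice. Of 45037 probe sets, 0 were called (limma, smallest adjusted p = 0.9996), a share of 0%, while 1685 had an unadjusted p under 0.05, or 3.74%, with 900 higher and 785 lower in AQ. Among 18193 genes, each represented by its brightest probe set, 0 (0%) were called and 698 (3.84%) had an unadjusted p under 0.05, with 367 higher in AQ (2.02%) and 331 lower (1.82%). The 5 AQ and 5 AC values did not overlap in 282 probe sets (0.626%) and, counted by gene, in 100 genes (0.55%), of which 62 were higher in AQ (0.341%) and 38 lower (0.209%). A p that misses the threshold does not show that the codes had the same levels, so intervals are given. The 95% confidence interval of the difference lay within 1 log2 unit of 0 for 99.1% of probe sets and within 0.5 for 87.9%, and its median half-width was 0.247. For the 24029 probe sets with a mean of at least 5, these shares were 98.6% and 83.7%. Over all probe sets the differences had a median of 0.00 and an SD of 0.138. Adding the number sets to the model also left 0 probe sets called (2309 at an unadjusted p under 0.05), and the interaction of code with set had 0 (1957 at an unadjusted p under 0.05). Within arrays 1 to 3, a subset taken from the values, 10 probe sets were called, all of them of Lin7c, Golt1b, H2-K1, H2-D1 or H2-Q2, which are described with the founder alleles. Within arrays 4 and 5, 1 was called, of Fhad1, which differed by 4.21 there and by -0.55 over all 10 mice. Fhad1 also differed between the parents at lactation, QSi5 minus CBA/CaH, by -5.56 (limma adjusted p = 2.9e-05). It was not called between them at pregnancy (-0.74).

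Among the genes without overlap, those with the smallest p were lower in AQ. None of them was called, and their values are a description of these mice. Gpatch11, a protein with an RNA-associated G-patch domain, had log2 levels of 4.71, 4.66, 4.93, 4.61 and 4.44 in AQ1 to AQ5, against 5.12, 5.76, 5.57, 5.40 and 5.36 in AC1 to AC5. The highest AQ mouse, AQ3, lay below the lowest AC mouse, AC1. The difference was -0.77 (SE 0.13, 95% interval -1.04 to -0.50, limma adjusted p = 0.9996). Plagl1, an imprinted zinc finger transcription factor, had levels of 8.09, 8.28, 7.89, 8.26 and 7.97 in AQ, against 9.11, 8.68, 8.49, 9.03 and 8.78 in AC (difference -0.72, SE 0.13). Its 2 other probe sets, both dimmer, showed differences of -0.02 and 0.15, so the gene's probe sets did not move together.

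Sectm1a, which encodes a small secreted and membrane protein, had the lowest difference of the 24 genes without overlap described here, at -1.11 (SE 0.22, 95% interval -1.58 to -0.65). Its levels were 7.12, 6.57, 6.58, 6.998 and 6.22 in AQ1 to AQ5, against 8.10, 7.95, 8.35, 7.33 and 7.30 in AC1 to AC5. The AC mice fell into a brighter set of AC1 to AC3 and a dimmer pair of AC4 and AC5, and both stood above all AQ mice. Its neighbour Sectm1b, with no measured gene between them in the order of the GRCm38.p6 annotation, differed by -1.07 (SE 0.49), but its AQ levels ran from 5.65 to 9.01 and its AC levels from 8.06 to 8.86, with overlap. Sectm1b was chosen after its values were seen.

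Slc25a1, the mitochondrial citrate carrier that exports the carbon for fatty acid synthesis, had levels of 11.20, 11.63, 11.70, 11.62 and 11.62 in AQ, against 12.10, 12.01, 12.37, 11.98 and 12.05 in AC. AQ1 lay lowest and AC3 highest, and the codes did not overlap (difference -0.55, SE 0.11, 95% interval -0.79 to -0.30). Ap1ar, a regulator of adaptor-dependent membrane transport, had the same difference of -0.55 (SE 0.11), with 6.69 to 7.12 in AQ and 7.19 to 7.57 in AC. Fam241a, its neighbour with no measured gene between, went the other way at 0.49 (SE 0.12), with an overlap, and was also chosen after its values were seen. The other genes of smallest p lower in AQ were Gga3, a clathrin adaptor of the Golgi (-0.32), Tasor2 (-0.51), Ildr1, a protein of tricellular junctions (-0.44), Cxcr4, a chemokine receptor (-0.35), C130075A20Rik (-0.33), Stox2 (-0.36) and Slc12a8 (-0.31).

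Of the genes without overlap that were higher in AQ, Ptges came first. This enzyme makes prostaglandin E, and its levels were 7.13, 7.38, 7.08, 7.22 and 7.46 in AQ, against 6.82, 6.75, 6.74, 6.92 and 6.17 in AC (difference 0.57, SE 0.14, 95% interval 0.28 to 0.87). AC5 lay well below the other AC mice, and the other 2 probe sets of the gene showed differences of 0.28 each, with overlap. Itga4, an integrin chain of leukocytes, had 5.57 to 5.91 in AQ and 5.19 to 5.47 in AC (0.39, SE 0.10). Wwox, an oxidoreductase with WW domains, had 6.52 to 6.87 in AQ and 6.15 to 6.37 in AC (0.36, SE 0.09).

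Thy1, a surface protein of fibroblasts and T cells, had 6.77 to 7.01 in AQ and 6.07 to 6.69 in AC (0.43, SE 0.12). The remaining genes were Trim6, a ubiquitin ligase (0.33), A230107N01Rik (0.31), Gsap (0.42), Lrriq3 (0.34), Itga2, a chain of a collagen receptor (0.36), Batf3, a transcription factor of dendritic cells (0.46), Adcy8, an adenylyl cyclase (0.33), and Nxnl1 (0.34). Many of these 12 lay at low levels on the array, from 3.44 for A230107N01Rik to 7.25 for Ptges in the AQ mean. The 12 lower in AQ ran from 3.51 for Cxcr4 to 11.55 for Slc25a1 in the AQ mean, with Gpatch11 at 4.67. Where a gene of either direction had further probe sets, these often did not follow. The other 4 of Itga4 differed by -0.04 to 0.10 and the other 3 of Wwox by -0.12 to 0.15. The other one of Ap1ar, which was lower in AQ, differed by -0.28. The nearest pair of the 24 genes on a chromosome, Slc12a8 and Ildr1, had 27 measured genes between them.

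**Figure D2:**
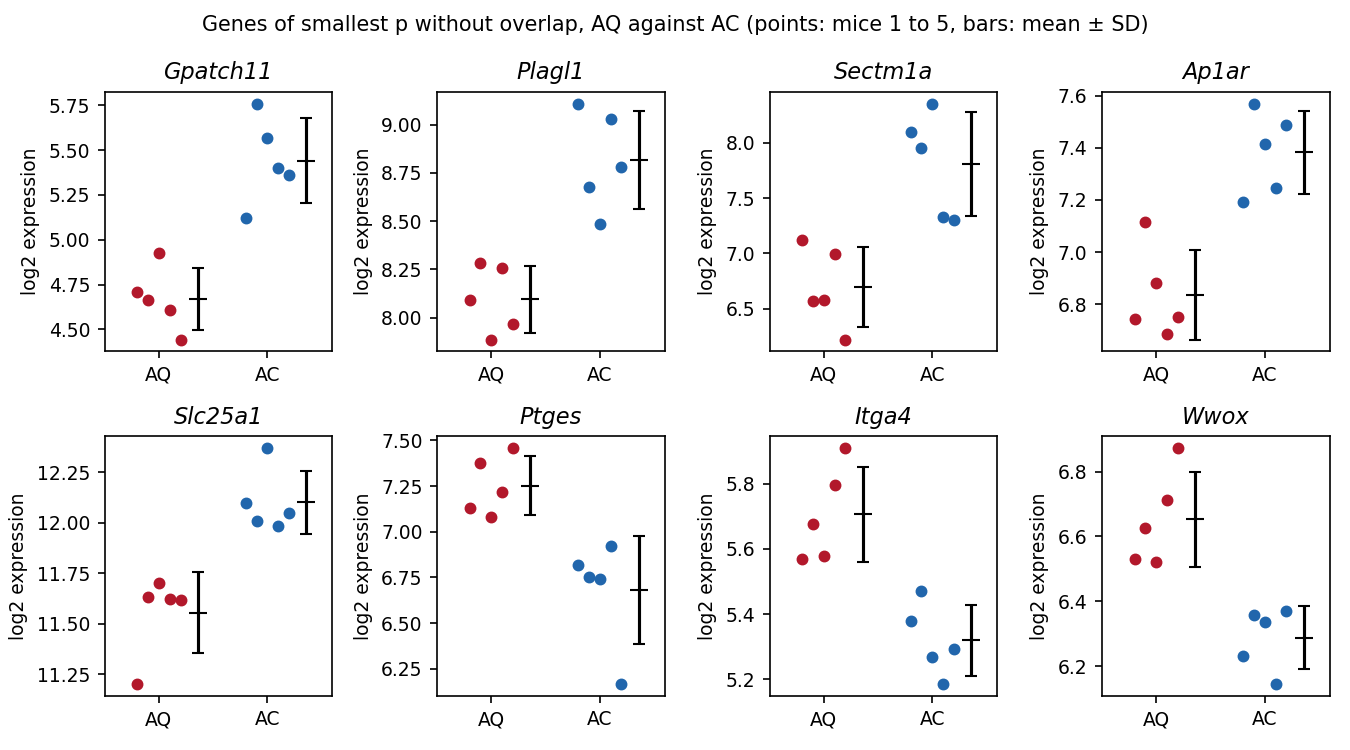
Log2 levels of 8 genes in AQ mice (red, left) and AC mice (blue, right), with each mouse as a point from number 1 to 5 and the mean ± SD beside it (n = 5 each). The codes do not overlap in these genes, which were picked for that and for their small p, and none was called.

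Caseins and Wap stood at the top of the measured range in both codes. Wap averaged 15.05 ± 0.02 in AQ and 15.04 ± 0.04 in AC, and Csn2, which encodes beta-casein, averaged 14.85 ± 0.01 in AQ and 14.83 ± 0.04 in AC (SD, n = 5 each). Differences were 0.01 for Wap, 0.02 for Csn2, 0.02 for Csn1s1 (alpha-casein) and 0.00 for Csn3 (kappa-casein), and the 95% interval of Wap ran from -0.15 to 0.17. The highest value in the table was 15.13, and levels so close to it cannot show that the codes were equal. Lalba, the lactose synthase regulator, had 14.64, 14.69, 14.52, 13.87 and 14.64 in AQ, against 14.57, 14.65, 14.59, 14.60 and 14.58 in AC. AQ4 lay below all other mice, and the difference of -0.12 (SE 0.14) was 0.03 without it. Of the 11 milk protein genes, 0 were called, 0 were higher and 1 was lower in AQ at an unadjusted p under 0.05. It was Muc1, a mucin of the milk fat membrane, at -0.24 (95% interval -0.47 to -0.02). Cel, the milk lipase, differed by 0.06 (SE 0.10) and Ltf, the iron-binding lactoferrin, by 0.44 (SE 0.31), the highest of the list.

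Of 10 genes of the milk fat globule and droplet, 0 were called and 1 was lower in AQ at an unadjusted p under 0.05. Xdh, which binds butyrophilin at the surface of the forming droplet, had 12.40, 12.24, 12.56, 12.59 and 12.28 in AQ, against 12.63, 12.94, 12.92, 12.60 and 12.51 in AC. The codes overlapped (-0.30, SE 0.11, 95% interval -0.55 to -0.06). Btn1a1, the butyrophilin of the droplet membrane, differed by -0.03 (SE 0.08) and Cidea, a lipid droplet protein, by -0.03 (SE 0.08). The median difference of the list was -0.00498, against 0.00181 over all genes.

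**Figure D3:**
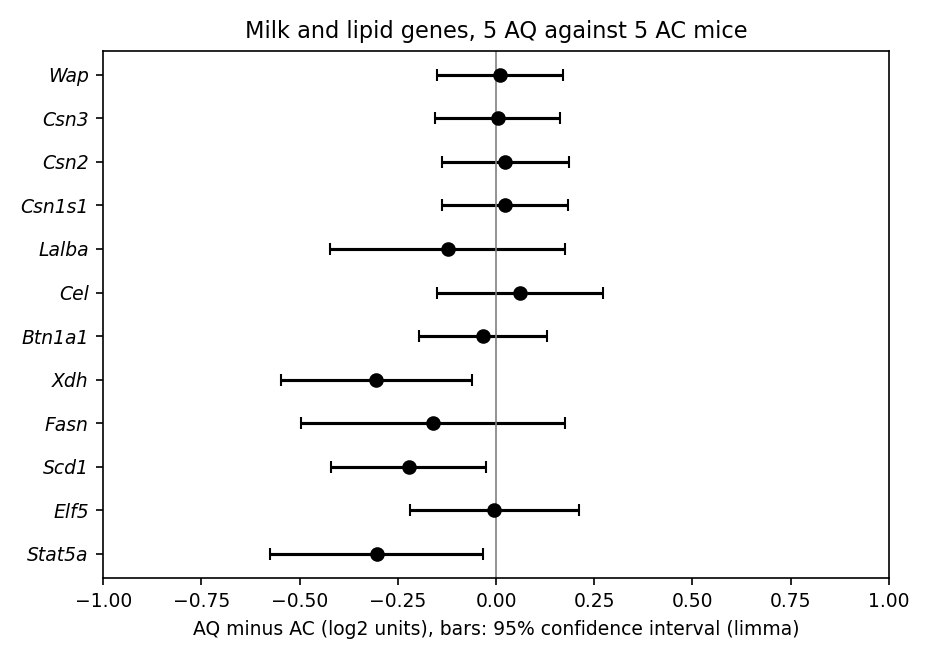
Difference between AQ and AC mice in 12 mammary genes (log2 units, limma, points) with its 95% confidence interval (bars). The casein and whey genes sit close to 0, and the intervals of Xdh, Scd1 and Stat5a lie below 0 before adjustment for multiple tests.

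Genes of fatty acid and triglyceride synthesis tended to lower values in AQ, but none was called and the count shrank on leaving out AC3, AQ1, AC5 or AQ5. Of 26 measured members, 19 had a negative difference, 7 were lower in AQ at an unadjusted p under 0.05 (1.82% of all genes were) and 0 were higher. The median difference was -0.11, against 0.00181 over all genes. Besides Slc25a1, the members of smallest p were Srebf1, the transcription factor of lipid synthesis (-0.60, SE 0.23), Lpin1, a phosphatidate phosphatase (-0.33, SE 0.13), and Scd1, which desaturates stearate (-0.22, SE 0.09). Srebf1 had 9.75, 10.04, 9.96, 10.06 and 10.03 in AQ, against 9.96, 10.18, 11.54, 10.33 and 10.81 in AC. AC3 stood far above the rest, and the codes overlapped. Scd1 had 13.95, 14.21, 14.26, 14.07 and 13.89 in AQ, against 14.27, 14.29, 14.27, 14.32 and 14.34 in AC. The codes did not overlap on this probe set, and on its other probe set, which differed by -0.49 (SE 0.19), they did.

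AC3 held the highest of the 10 values in 15 of the 26 lipid synthesis genes and AQ1 the lowest in 7. Relative to the mean of the 10 mice, the median of the list was 0.34 on AC3, against -0.04 to 0.05 on the other AC arrays and -0.13 to 0.06 on the AQ arrays. Without AC3, 3 members were lower in AQ at an unadjusted p under 0.05 and the median difference was -0.05, while the count was 2 without AQ1 and 4 without either AC5 or AQ5. It was also 2 with the Gapdh 3 prime minus 5 prime value as a covariate, 3 after quantile normalization or cyclic loess, and 10 with the replicate numbers as a block. Fasn, the fatty acid synthase, differed by -0.16 (95% interval -0.50 to 0.18) and Acaca, which makes its malonyl substrate, by -0.25 (95% interval -0.51 to 0.01). Dgat2, which adds the last acyl chain of a triglyceride, differed by 0.28 (95% interval -0.23 to 0.80).

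**Figure D4:**
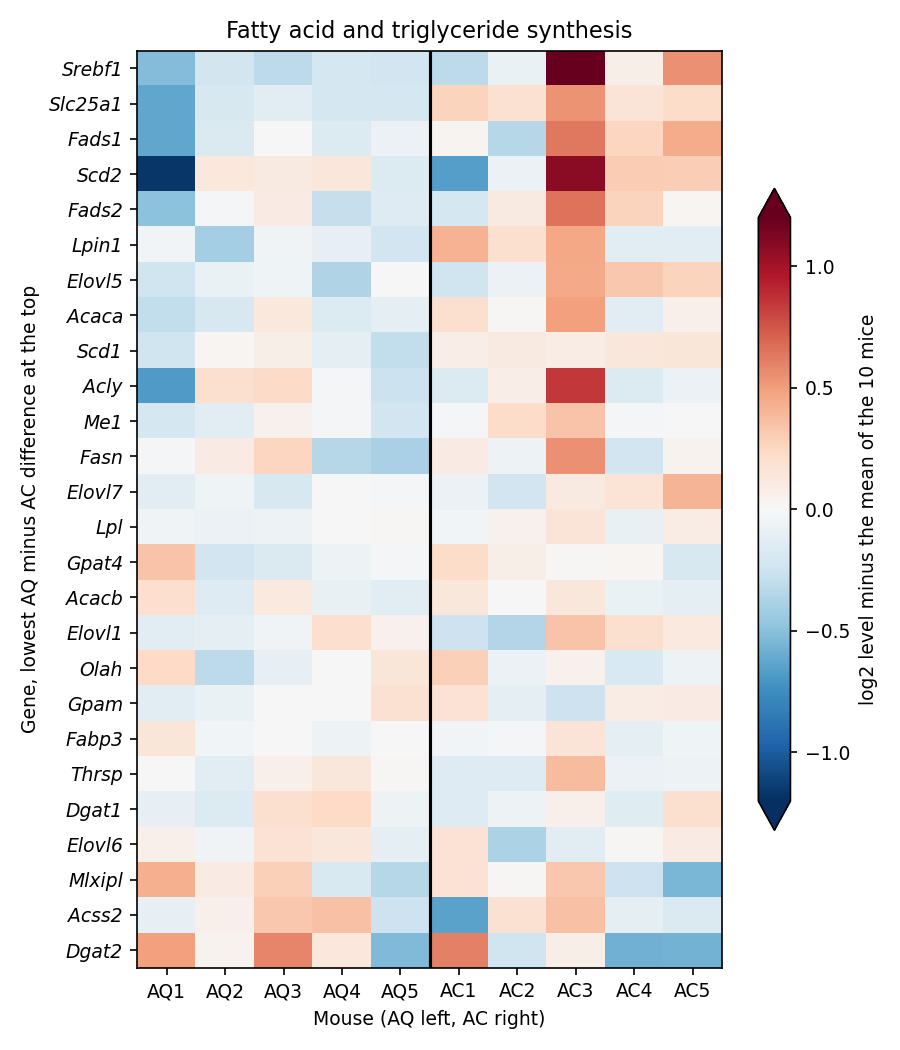
Log2 level of 26 genes of fatty acid and triglyceride synthesis in each mouse, minus the mean of the 10 mice, with AQ on the left of the line and AC on the right. Red is above and blue below the mean, colours end at 1.2 log2 units, and the column of AC3 holds the highest value in 15 genes.

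The regulators of lactation were also not called. All 11 measured genes of prolactin and STAT5 signalling had a negative difference, with a median of -0.08, and 1 had an unadjusted p under 0.05. It was Stat5a, the transcription factor that drives milk genes, with 9.94, 10.18, 9.83, 10.04 and 10.04 in AQ, against 10.03, 10.03, 10.54, 10.35 and 10.60 in AC (-0.30, SE 0.13, 95% interval -0.58 to -0.03). AC1 and AC2 lay among the AQ mice. Cish, a feedback inhibitor of this pathway, differed by -0.31 (95% interval -0.72 to 0.11) and Elf5, a luminal transcription factor, by -0.00467 (SE 0.10). In the 14 genes of insulin and IGF signalling, Irs2, an adaptor of the insulin receptor, had 6.79 to 7.48 in AQ and 7.41 to 8.19 in AC (-0.59, SE 0.16). Igfbp3, which binds IGF in the extracellular space, differed by -0.64 (SE 0.28). These 2 were the members with an unadjusted p under 0.05, and the median of that list was -0.04.

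No gene of energy metabolism, protein folding or transport was called. Of 17 genes of mitochondrial respiration, 16 had a negative difference, but the median was -0.06, all 17 intervals lay within 1 log2 unit, and 0 had an unadjusted p under 0.05. Fatty acid oxidation went the other way in 11 of 14 genes (median 0.07), with AQ1 highest in 8. The medians were -0.07 for 15 genes of cholesterol synthesis, -0.000223 for 17 of endoplasmic reticulum folding, -0.08 for 19 aminoacyl-tRNA synthetases, -0.13 for 13 of lactose synthesis and glucose use and -0.06 for 19 transporters. Among the transporters Slc1a5, a glutamine carrier, was higher in AQ at an unadjusted p under 0.05 (0.47, 95% interval 0.04 to 0.89).

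Cell cycle genes had higher values in AQ in 23 of 28 members, with a median of 0.14 and 1 member at an unadjusted p under 0.05. Birc5, which protects dividing cells and guides the mitotic spindle, had 5.24, 5.78, 4.90, 5.15 and 5.46 in AQ, against 5.10, 4.69, 4.39, 4.84 and 4.68 in AC (0.57, SE 0.16, 95% interval 0.22 to 0.91). Only AC1 reached into the AQ range. AQ2 held the highest value in 13 of the 28 genes and AC3 the lowest in 6. Cdk1, the kinase of mitotic entry, had 7.10 in AQ2 and 5.91 to 6.39 in the other AQ mice, against 5.44 to 6.38 in AC.

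No marker gene of another cell type was called between the codes, but single mice stood apart. Over 18 skeletal muscle genes the median relative to the mean of the 10 mice was -0.46 to -0.32 on the AQ arrays, against 3.66 on AC1 and -0.49 to -0.41 on the other AC arrays. Tnnc2, a troponin of fast muscle, had 4.09 to 4.48 in AQ, against 11.8 on AC1 and 4.07 to 4.70 on the other AC arrays. Its difference was -1.63 (SE 1.14), and AC1 alone stood apart. White adipocyte genes had positive differences in 9 of 10 members (median 0.17), and Adipoq, an adipocyte hormone, had 10.43 to 11.32 in AQ and 9.63 to 10.81 in AC (0.58, SE 0.21). AQ1 was highest in 7 of these 10 genes.

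Myoepithelial genes had a median difference of 0.11, with Krt14, a basal keratin, at 0.29 (SE 0.13). Luminal genes had a median of -0.03, with Prom1 at 0.27 (SE 0.10). The medians were 0.11 for B and plasma cells, 0.06 for T and NK cells, 0.04 for macrophages, -0.06 for neutrophils, -0.05 for endothelium and 0.09 for fibroblasts and matrix. Interferon response genes had a median of 0.06, with AQ3 highest in 10 of 15. In the circadian clock list, Clock, a core transcription factor of the clock, had 6.30 to 6.76 in AQ and 6.42 to 7.13 in AC (-0.41, 95% interval -0.71 to -0.11). Over all 35 lists, 487 genes were measured, 0 were called, 7 were higher and 15 lower in AQ at an unadjusted p under 0.05 (4.52%, against 3.84% of all genes), and 93.4% had an interval within 1 log2 unit.

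Acute phase genes spread widely within both codes. Saa1, a serum amyloid that the inflamed gland also makes, had 6.25, 9.85, 9.84, 11.43 and 7.24 in AQ, against 6.52, 7.14, 13.69, 8.89 and 6.51 in AC. Orm2, an acute phase glycoprotein, was also lowest on AQ1 (6.30) and highest on AQ4 (10.71) among AQ mice, and highest on AC3 (12.88) among AC mice. Their differences were 0.37 (SE 1.27) for Saa1 and 0.42 (SE 1.19) for Orm2, far inside their spread. Both were chosen after their values were seen. AC3, which was highest in lipid synthesis, was thus also highest in 11 of 20 genes of involution and the acute phase, and whether these are connected was not tested.

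Differences of at least 1 log2 unit were seen in 16 genes, 7 higher and 9 lower in AQ, and apart from Sectm1a all were named after their values were seen. Of these, 4 (Tnnc2, Acta1, Atp2a1 and Neb) are skeletal muscle genes that were highest on AC1. Sgk1, a kinase induced by serum and glucocorticoids, had 8.69, 9.90, 8.78, 9.01 and 10.31 in AQ, against 11.26, 10.75, 11.85, 9.80 and 10.41 in AC (-1.48, SE 0.37, 95% interval -2.28 to -0.67). Of the AC mice only AC4 reached into the AQ range. Pck1, the gate enzyme of gluconeogenesis and glycerol synthesis, differed by 1.11 (SE 0.48), with 9.65 on AQ1 and 6.90 to 8.004 on the other AQ arrays, against 5.92 to 7.54 in AC. Ctse, an aspartic protease, gave opposite signs on its 2 probe sets, 2.01 (SE 0.71) and -1.19 (SE 0.83).

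Because the line segregates founder alleles, the codes were next compared over transcripts that mark the founder strain. Between the parental strains, QSi5 minus CBA/CaH, 130 of 45037 probe sets (0.289%) were called at lactation day 9 and 492 (1.09%) at pregnancy day 12. Of those, 28 genes on 13 chromosomes (GRCm38.p6) were called at both stages in the same direction, with at least 1 log2 unit and no overlap between the strains. None of the intercross arrays took part in that choice. Each mouse was given a position for each gene, 0 at the CBA/CaH lactation mean and 1 at the QSi5 lactation mean, kept within -0.5 and 1.5. Intercross and parental arrays could also differ where no strain difference was called. A dimmer Btn1a1 probe set, picked after its values were seen, had 8.28 to 10.35 on the intercross arrays. On the parental lactation arrays it had 4.29 to 4.81 in QSi5 and 3.76 to 5.17 in CBA/CaH. Whether a position reflects founder alleles or such an offset was not tested.

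The mean position over the 28 genes was 0.522 ± 0.073 in AQ and 0.453 ± 0.059 in AC (SD, n = 5 each). Single mice had 0.570, 0.600, 0.495, 0.412 and 0.533 in AQ1 to AQ5, against 0.407, 0.389, 0.441, 0.502 and 0.523 in AC1 to AC5. The codes overlapped, and the difference of 0.070 was within the spread (two-sided exact permutation test, p = 0.135, where 0.00794 is the smallest p the design allows). Without AQ4 it was 0.097 (exact permutation p = 0.0476), and over the 9 genes with a parental difference of at least 2 log2 units it was -0.06 (exact permutation p = 0.238), so neither its size nor its sign was stable. AQ was nearer QSi5 in 17 of the 28 genes, among them all 6 on chromosome 17, which are not separate counts. By chromosome, 1 of 13 had an exact permutation p under 0.05 before adjustment, chromosome 2 (p = 0.0159, Benjamini-Hochberg adjusted p = 0.206). It holds 2 of the 28 genes, Lin7c with a position difference of 1.15 and Mvb12b with 0.02, so its value rests on Lin7c.

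**Figure D5:**
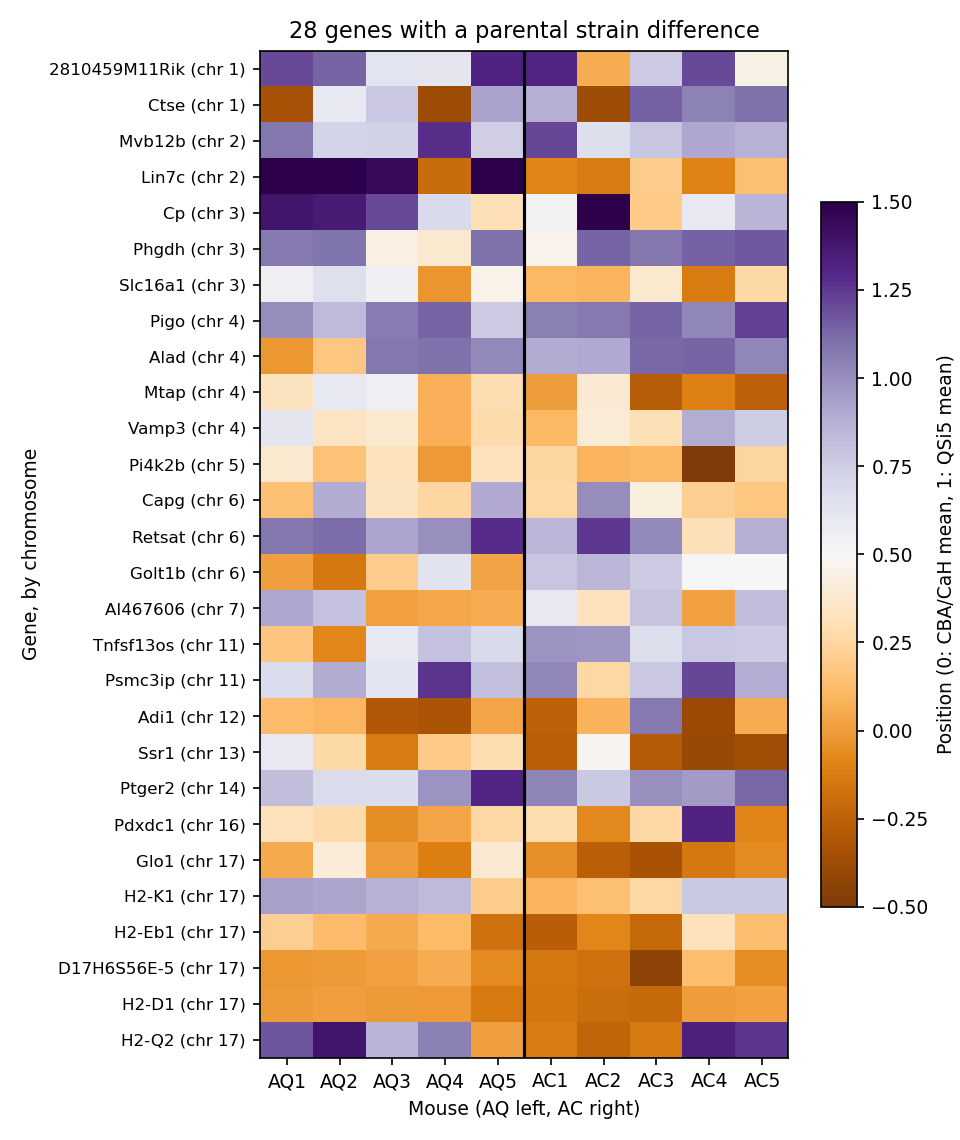
Position of each mouse (columns, AQ left of the line and AC right) for 28 genes with a parental strain difference (rows, by chromosome), from the CBA/CaH level (0, orange) to the QSi5 level (1, purple), with colours ending at -0.5 and 1.5. The 10 mice span over 0.5 of the scale in 26 of the 28 genes, and Lin7c is purple in 4 of 5 AQ mice and near 0 in all AC mice.

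At single founder-marking genes the mice often fell into a high and a low set. The examples were chosen after their values were seen, out of the 28. Of these 28 genes 8 had an unadjusted p under 0.05 between AQ and AC, against 3.84% of all genes, 6 with AQ nearer QSi5 and 2 with AQ nearer CBA/CaH, and 0 had codes without overlap. Their spread was larger than that of other genes, with a median SD of 0.580 in AQ and 0.713 in AC, against 0.169 and 0.182 over all genes. The limma model draws the variance of such widely spread genes toward that of the rest, which makes their p smaller. The 28 also use the probe set of largest strain difference, and all genes their brightest one. The count of 8 is therefore not like for like with the 3.84%.

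Lin7c, a scaffold protein of epithelial cell polarity on chromosome 2, showed the largest difference of the 28. The probe set that marked the strains had 8.28, 7.72, 7.19, 3.89 and 7.65 in AQ1 to AQ5, against 4.11, 4.03, 4.68, 4.09 and 4.56 in AC1 to AC5. The parental lactation arrays had 6.04 to 6.45 in QSi5 and 4.15 to 4.53 in CBA/CaH. Thus 4 AQ mice lay above the QSi5 range, and AQ4 lay with the AC mice at the CBA/CaH level. The difference was 2.65 (SE 0.61, 95% interval 1.33 to 3.97, limma adjusted p = 0.9996), and without AQ4 it was 3.41 and was called (adjusted p = 2.06e-05). The 3 other Lin7c probe sets had smaller differences of 0.36, 1.08 and 0.28. On these 3 the QSi5 range overlapped the CBA/CaH range and did not lie above it. Their highest intercross values, 6.41, 7.45 and 8.45, exceeded both parental ranges. Its neighbour Ccdc34, with 1 measured gene between, differed by 0.57 (SE 0.25) on 1 probe set and by 0.62 (SE 0.12), without overlap, on a dimmer one.

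The same 4 AQ mice stood apart from AQ4 in 3 other genes. Golt1b, a Golgi transport protein on chromosome 6, had 7.73, 8.05, 7.35, 6.45 and 7.70 in AQ, against 6.14, 6.02, 6.19, 6.70 and 6.73 in AC, with 5.42 to 6.08 in QSi5 and 7.65 to 7.87 in CBA/CaH. Here the 4 AQ mice lay near CBA/CaH (difference 1.10, SE 0.25), while on the Lin7c probe set that marked the strains they lay above the QSi5 range. Sspn, a membrane protein also on chromosome 6 with 20 measured genes between, had 4.73, 4.47, 4.54, 3.84 and 4.72 in AQ and 3.59 to 3.97 in AC (0.72, SE 0.15). Llgl1, a polarity protein on chromosome 11, had 7.33, 7.40, 7.42, 8.43 and 7.44 in AQ, against 8.19 to 8.61 in AC (-0.77, SE 0.19), where the parental means were 8.18 in QSi5 and 7.16 in CBA/CaH. With AQ4 left out, these 3 genes and Lin7c were the ones called (limma, adjusted p = 0.0441 for Golt1b, 0.0333 for Sspn and 0.0112 for Llgl1). AQ4 is the AQ mouse that lay with the AC mice in each of them, and over all 10 mice the adjusted p was 0.9996, so these calls are no evidence of a difference between the codes. Sspn and Llgl1 are not among the 28.

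Class I genes of the major histocompatibility complex on chromosome 17 divided the mice across the codes. H2-K1, a classical class I antigen, had 11.17, 11.29, 11.40, 11.37 and 9.12 in AQ1 to AQ5, against 8.67, 8.97, 8.68, 11.28 and 11.20 in AC1 to AC5, on its brightest probe set. QSi5 had 11.35 to 11.83 and CBA/CaH 8.59 to 9.38 on it. AQ1 to AQ4 with AC4 and AC5 thus lay within or just below the QSi5 range, and AQ5 with AC1 to AC3 within the CBA/CaH range, for a difference of 1.11 (SE 0.58, 95% interval -0.13 to 2.35). H2-Q2, a related class I gene, had 6.14, 6.65, 5.39, 5.84 and 3.35 in AQ, against 3.02, 2.77, 3.01, 6.53 and 6.36 in AC, with the same mice high. Within arrays 1 to 3, where all AQ mice were high and all AC mice low, H2-K1 differed by 2.51 and H2-Q2 by 3.13. These 2 values are a description, because the subset was taken from the values, and the interaction of code with set called 0 probe sets (limma, smallest adjusted p = 0.340). On 4 probe sets of H2-D1, with differences of 1.10, 0.52, 1.59 and 0.56, the same mice were high. Its brightest probe set, which was higher in CBA/CaH (9.94 to 10.50) than in QSi5 (3.83 to 4.96), ran the other way, with 10.93 on AQ5 and 10.07 to 10.22 on the other AQ arrays, against 11.04 to 11.33 on AC1 to AC3 and 10.14 and 10.03 on AC4 and AC5. On that probe set every mouse lay within or above the CBA/CaH range. Every mouse was also nearer CBA/CaH than QSi5 in H2-Eb1 and D17H6S56E-5, which lie on the same chromosome and are among the 28. H2-Eb1 had 7.67 to 8.75 in the intercross and 6.08 to 6.97 in QSi5. D17H6S56E-5 had 9.28 to 12.71 in the intercross and 3.83 to 4.09 in QSi5. Class I genes share much of their sequence, so a probe set may also read other copies.

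Other strain markers were held by 1 or a few mice. Glo1, which detoxifies methylglyoxal and lies on chromosome 17, had 9.45, 8.51, 9.58, 9.88 and 8.57 in AQ, against 9.71, 10.29, 10.46, 9.97 and 9.77 in AC, with 6.55 to 7.19 in QSi5 and 9.34 to 9.72 in CBA/CaH. AQ2 and AQ5 were lowest, and no mouse reached the QSi5 level on this probe set (-0.84, SE 0.25). Another probe set of Glo1 was the only one of the 130 strain-called probe sets whose codes did not overlap, a share near the 0.626% of all probe sets. It had 6.96 to 7.98 in AQ and 8.05 to 8.40 in AC (-0.68). On it QSi5 had 6.35 to 7.25 and CBA/CaH 8.17 to 8.49, so the lowest AQ value lay within the QSi5 range. Of the 130, 67 had the same sign between AQ and AC as between QSi5 and CBA/CaH, and 18 (13.8%) had an unadjusted p under 0.05, against 3.74% of all probe sets. The 130 include the probe sets that mark the 28 genes, and several probe sets of the same gene, such as H2-D1. This share is therefore also not like for like with the 3.74%.

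Alad, an enzyme of haem synthesis on chromosome 4, had 7.06 on AQ1 and 7.40 on AQ2, and 8.88 to 9.02 on the other AQ arrays, against 8.66 to 9.09 in AC. Its parental ranges were 8.83 to 8.86 in QSi5 and 7.01 to 7.15 in CBA/CaH. Phgdh, the first enzyme of serine synthesis, had 9.53 on AQ3 and 9.78 on AQ4 and 6.94 to 7.01 on the other AQ arrays, against 9.42 on AC1 and 6.66 to 6.99 on the other AC arrays. Its QSi5 level was 7.09 to 7.56 and its CBA/CaH level 10.77 to 11.80. These values are of 1 probe set, and the brightest one of Phgdh differed by -0.00673 (SE 0.09). Adi1, of the methionine salvage pathway, was low on AC3 alone, with 8.51 to 9.30 in AQ, against 6.81 on AC3 and 8.59 to 9.42 on the other AC arrays.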

How the data were processed

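Labelled RNA of 26 mice, each on its own array, was hybridised to Affymetrix mouse genome arrays, per the labels' protocols. What the authors deposited is a log2 value for every probe set and array after RMA, a background correction, quantile normalization and probe summary, per the submitters' processing notes. Software version and chip definition: not given in the sources used here. The values were used as deposited. Of 45101 probe sets, 64 controls were left out. An annotation table of the array gave 34945 probe sets 1 symbol, 932 several and 9160 none. Linear models were fitted with limma 3.58.1 in R 4.3.3 to the 10 intercross arrays, and apart from them to the 16 parental arrays, and were tested on simulated data. Benjamini-Hochberg adjustment ran over 45037 probe sets, with calls made under 0.05. Each gene stands for its brightest probe set, by the mean over the 10 arrays. Chromosomes and gene order came from RefSeq (GRCm38.p6), and no coordinates are given because the files name no build. Positions on the parental scale were compared with an exact permutation test.

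Named genes were the 12 per direction of smallest p among genes without overlap, up to 4 members of smallest p per described list, and 12 fixed mammary genes. The comparison, lists and rules were chosen with earlier results of these data known. P-values measure the spread between mice, whose relatedness the labels do not give. Alternatives were other sets of arrays, normalizations, variance models and covariates, a block on replicate numbers, and each array left out. Figures were drawn with matplotlib 3.10.9.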

Additional observations from a re-analysis of the deposited data

Results flagged for a closer look

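In 118 groups of 5 arrays (single genes and list medians), 10 had 1 array whose gap to the nearest of the others exceeded 0.71 of the group's range. Chance flags about 1 in 20 groups. Among AQ mice, Thy1 was 7.01 on AQ2 (others 6.77 to 6.82), Slc25a1 was 11.2 on AQ1 (others 11.6 to 11.7), Csn2 was 14.8 on AQ3 within a range of a few hundredths, and Lalba was 13.9 on AQ4 (others 14.5 to 14.7). Among AC mice, Ptges was 6.17 on AC5 (others 6.74 to 6.92) and C130075A20Rik was 4.91 on AC1 (others 4.61 to 4.67).

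Of the list medians, relative to the mean of the 10 mice, B and plasma cell markers stood at 0.26 on AQ2 (others 0.02 to 0.06) and at 0.25 on AC4 (others -0.23 to -0.10). Fatty acid and triglyceride synthesis stood at 0.34 on AC3 (others -0.04 to 0.05), and skeletal muscle markers at 3.66 on AC1 (others -0.49 to -0.41).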

How the results depend on the processing

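The number of mice limits these results. In 25 alternative settings, of which 24 were planned and leaving out AC1 and AC3 together was chosen after seeing the data, limma called 0 probe sets except within arrays 1 to 3 (10 probe sets, 4 genes, 2 members of the lists), within arrays 4 and 5 (1 probe set, 1 gene) and on leaving out 1 array (0 to 4 probe sets and 0 to 3 genes, all of these without AQ4). Calls within a set rest on fewer arrays. None of the 24 genes without overlap named by p was called or reversed in 592 recomputations (lowest adjusted p = 0.0588). The smallest adjusted p over all probe sets was 0.234 with the 16 lactation arrays in the fit and 0.569 with the number sets as a factor.

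With a replicate block on the numbers 1 to 5, limma called 0 probe sets (smallest adjusted p = 0.086, against 0.9996 without it, and 2329 at an unadjusted p under 0.05). AQ and AC arrays of the same number had deviations correlated at 0.00737 to 0.316, above 0.1 for 4 of 5 numbers, against means of -0.0803 to -0.00505 with other numbers. Of 5 AQ arrays, 3 correlated best with the AC array of their own number. The other numbers include arrays of the opposite number set, 1 to 3 or 4 and 5. These values therefore cannot separate a pairing by number from the division into those sets. The labels give no pairing, and number 2 showed none. Under this block 10 lipid synthesis genes were lower at an unadjusted p under 0.05.

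The position difference ran from 0.0499 to 0.0971 on leaving out 1 array, and was -0.0617 over the genes of at least 2 log2 units and 0.0917 on the pregnancy scale. Lipid synthesis genes lower at an unadjusted p under 0.05 numbered 2 to 8 on leaving out 1 array, 3 after quantile normalization, cyclic loess or leaving out AC1 and AC3, and 2 with the Gapdh covariate or the 16 arrays. Signs reversed in 9 fixed genes, among them Fasn (-0.16 over all 10 mice) and Lalba (-0.12), and the cause was not tested. Quantile normalization gave 0.0125 for Btn1a1 and 0.0496 for Elf5, and cyclic loess 0.0133 and 0.0419. Equal array medians gave -0.00951 for Csn3 and -0.0036 for Wap. The Gapdh covariate gave -0.0207 for Cel and -0.00429 for Csn3, and the muscle covariate -0.00266 for Cel. The mean of all probe sets gave -0.0483 for Csn3 and 0.0457 for Elf5. Arrays 1 to 3 gave -0.000377 for Csn3 and 0.0171 for Lalba. Arrays 4 and 5 gave -0.00765 for Cel, -0.00373 for Csn1s1, 0.0988 for Elf5 and -0.0112 for Wap. Leaving out AC1 and AC3 gave -0.00399 for Csn2, -0.00465 for Csn3, 0.0029 for Fasn and -0.0161 for Wap. Leaving out 1 array gave -0.00746 to 0.102 for Cel, -0.00101 to 0.0135 for Csn3, -0.057 to 0.0544 for Elf5, -0.177 to 0.0285 for Lalba and -0.000157 to 0.0188 for Wap.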
